A study of Rattus norvegicus with 34 samples.

Results

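The genes described here encode 3 phospholipase C enzymes, Plcb1, Plcd1 and Plcg1, and the calcium-binding protein calbindin 1, Calb1. They were found by the gene names written in the spot files of 1 set of arrays, and their probes on the other sets by the same row and column of the grid. The files of those other sets carry numeric IDs in place of names, and for each of the 4 genes the IDs of both sets were the same. They are 4 of 239 named probes on a small rat cDNA array, each printed as 4 spots. Pregnant Wistar rats received vehicle, EMD 82571 at 50 mg/kg/day (low dose) or 150 mg/kg/day (high dose), or retinoic acid. EMD 82571 is a calcium sensitizer, a drug class that makes muscle filaments respond more strongly to calcium. Retinoic acid is a vitamin A derivative that disturbs development when given in excess. Tissue came from 2 gestational days: the whole embryo and the liver of the mother on day 12, and on day 20 the mother's liver together with the liver and the bone of the embryo. Each of the 34 arrays paired vehicle RNA (Cy3) with RNA of 1 treatment (Cy5), which gave 15 groups of 2 arrays, or of 4 for retinoic acid in embryo and in maternal liver on day 12. The dosing text gives retinoic acid as 12 mg/kg/day and the sample labels as 20 mg, so the dose is uncertain. It lists dosing on days 6 to 11 and on days 6 to 17 and does not assign either span to a group. Nothing in the labels tells whether replicate arrays came from separate litters, so p-values measure the spread between arrays, which may be technical.

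Phospholipase C enzymes cut the membrane lipid phosphatidylinositol bisphosphate into inositol trisphosphate, which releases calcium from the endoplasmic reticulum, and diacylglycerol, which activates protein kinase C. The isoforms differ in what switches them on. Plcb1 answers to G protein-coupled receptors, Plcg1 is phosphorylated by receptor tyrosine kinases such as those of the epidermal and vascular endothelial growth factors, and Plcd1 responds to calcium itself. Calb1 is a cytosolic EF-hand protein that buffers calcium and carries it through the cells of transporting epithelia. In fetal rats the liver is also a site of blood cell formation, and bone develops in part on a cartilage model.

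The cDNA sequences of the probes are not used here. Promoters of 3 of the 4 genes were found in the RefSeq table of rat build GRCr8, each with 250 bases before and 50 after the gene start, and Calb1 was not among them. Those of Plcb1 and Plcg1 are printed because these genes passed the test with retinoic acid in embryo bone. Capitals mark every match, on either strand, to AGGTCA or GGGTCA, half-sites that retinoic acid receptors can bind, and to GGGCGG, the GC box. Plcb1 lies on the plus strand of chromosome 3 and Plcg1 on the plus strand of the same chromosome.
Plcb1, chr3:142512515-142512814: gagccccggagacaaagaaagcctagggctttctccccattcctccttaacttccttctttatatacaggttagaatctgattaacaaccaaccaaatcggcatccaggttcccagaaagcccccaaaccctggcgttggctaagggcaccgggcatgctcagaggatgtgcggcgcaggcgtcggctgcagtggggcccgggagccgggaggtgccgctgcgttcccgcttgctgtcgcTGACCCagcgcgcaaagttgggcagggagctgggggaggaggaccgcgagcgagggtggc
Plcg1, chr3:169805049-169805348: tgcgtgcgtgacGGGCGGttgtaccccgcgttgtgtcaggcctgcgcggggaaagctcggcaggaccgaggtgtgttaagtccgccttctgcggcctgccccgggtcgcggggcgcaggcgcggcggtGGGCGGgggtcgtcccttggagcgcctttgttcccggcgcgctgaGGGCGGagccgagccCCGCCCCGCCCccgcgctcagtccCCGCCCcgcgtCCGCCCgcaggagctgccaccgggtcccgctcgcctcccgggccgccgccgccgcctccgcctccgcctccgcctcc
The Plcb1 window held 1 GGGTCA match and no GGGCGG. The Plcg1 window held 7 GGGCGG matches, of which a pair overlap by 1 base, and no half-site. Of 33469 rat promoters of the same length, 16.2% held AGGTCA, 13.8% GGGTCA and 33.1% GGGCGG. These matches describe the letters only.

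Across the 34 arrays, the median ratio of spot signal to local background lay between 1.57 and 4.7 for vehicle RNA and between 1.21 and 5.36 for treated RNA. The arrays fall into batches A, B and C by the array number in the sample titles, with 12, 8 and 14 arrays. All day-12 arrays are of batch A except 2 of the 4 in each retinoic acid group, which are of batch B. On day 20, the EMD 82571 arrays are of batch C, the retinoic acid arrays of both livers are of batch B, and those of embryo bone are of batch C but from another scan session. On day 20, compound and batch (in bone, session) therefore cannot be told apart. Dyes were never swapped, so a dye effect of a gene is part of every ratio. In vehicle RNA, 7 of 7 measured cartilage and bone markers were brighter in embryo bone than in embryo liver (log2 3.65 to 7.00). In the same comparison 6 of 8 hepatocyte markers were dimmer, where 67.4% of all genes differed in either direction. All 8 hepatocyte markers were dimmer in the day-12 embryo than in maternal liver, where 78.4% of all genes differed in either direction. In whole tissues, fewer cells of a type and less RNA per cell cannot be told apart.

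In day-20 embryo liver 6 of 12 values of these genes passed the test, in embryo bone 5 of 12, in the day-12 embryo 1 of 12, and in maternal liver of both days 0 of 23. Over all genes tested, 33.8%, 32.2%, 18.7% and 16.6% of values in these tissues passed, so calls were more frequent in the day-20 embryo for all genes as well. The test throughout was limma on log2 ratios with a variance pooled over all groups, two-sided, with Benjamini-Hochberg adjustment over all genes of a comparison and a threshold of 0.05. Values are means ± SE unless SD is stated. In maternal liver, log2 ratios of the 4 genes lay between -0.16 and 0.12 in every group, and the smallest adjusted p was 0.121 (Plcd1 with retinoic acid on day 12, unadjusted p = 0.0432). That unadjusted p was the smallest of the 23. Of the 12 values that passed in all, 4 also did in the authors' deposited table of log2 ratios: Plcg1 in embryo liver at the high dose, Plcb1 in bone and Calb1 in embryo liver with retinoic acid, and Calb1 in bone at the high dose.

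**Figure D1:**
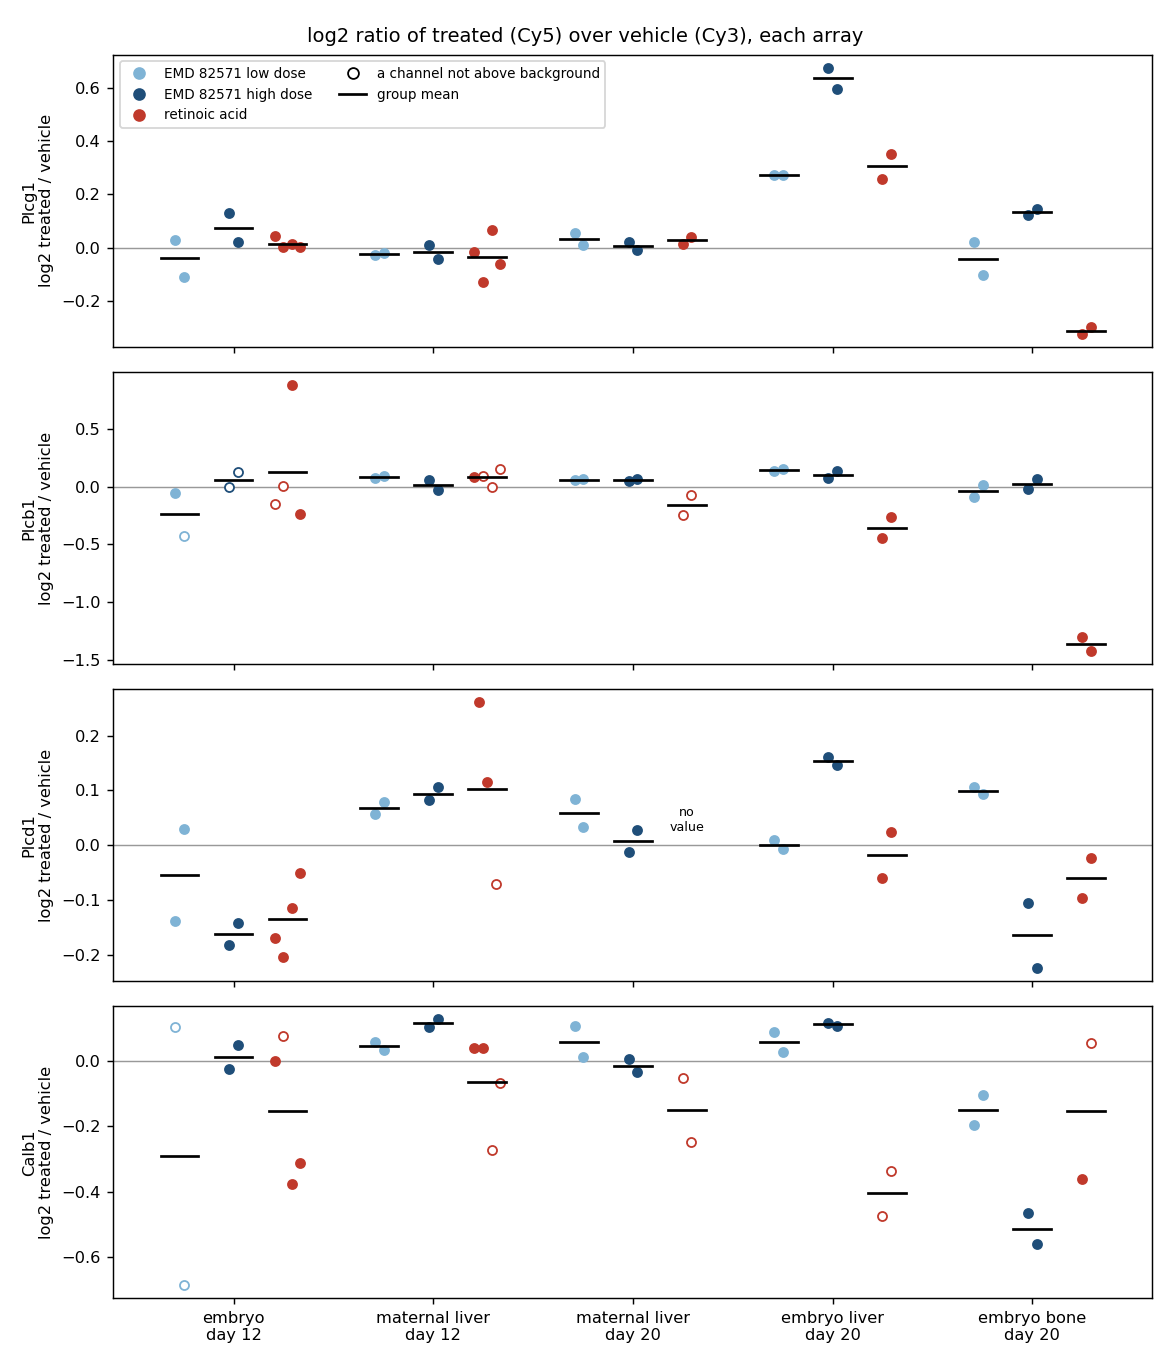
The log2 ratio of treated over vehicle on each array (points), with group means (bars), for the 4 genes in the 15 groups. Open points are arrays on which the Cy3 or the Cy5 signal was not above background. Plcg1 lies above 0 on all 6 embryo liver arrays, and Plcb1 at -1.30 and -1.42 on the embryo bone arrays with retinoic acid.

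Plcg1, the isoform downstream of receptor tyrosine kinases, rose in day-20 embryo liver with each treatment. Its log2 ratio was 0.27 on both arrays at the low dose of EMD 82571, 0.68 and 0.60 at the high dose, and 0.26 and 0.35 with retinoic acid. The high-dose arrays lay above all the others, and the low-dose and retinoic acid arrays overlapped. The low dose gave a 1.21-fold rise (log2 0.27 ± 0.05, n = 2, limma adjusted p = 0.000286). Of the 4 genes Plcg1 alone passed there, against 12.1% of the 239 genes tested. The high dose gave a 1.55-fold rise (0.64 ± 0.05, n = 2, limma adjusted p = 1.87e-10). Only 5 of the 238 genes tested had a higher ratio, and 38.7% passed in either direction. Retinoic acid gave a 1.24-fold rise (0.31 ± 0.05, n = 2, limma adjusted p = 1.37e-05), in a group where 51.3% of 228 genes passed. Signal was well above background on these arrays, at 2.31 to 8.67 times the local background for vehicle RNA and 2.47 to 11.1 times for treated RNA. In the authors' deposited table of log2 ratios, centred on each array's median, the high-dose arrays read 0.78 and 0.63. There the low-dose arrays read 0.19 and 0.25 and the retinoic acid arrays 0.20 and 0.19, and neither group passed (adjusted p = 0.475 and 0.15).

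The 2 doses differed in embryo liver. The ratio of Plcg1 at the high dose exceeded that at the low dose by log2 0.36 ± 0.06 (95% confidence interval 0.23 to 0.50, n = 4 arrays, limma adjusted p = 0.000418). It was the only one of the 4 genes to pass in this comparison, against 10.9% of all genes. The high dose exceeded retinoic acid by 0.33 ± 0.06 (limma adjusted p = 0.000227, n = 4 arrays), where 41.4% of genes passed, across unlike array batches. The response of Plcg1 was larger in embryo than in maternal liver of the same day by log2 0.24 at the low dose, 0.63 at the high dose and 0.28 with retinoic acid (limma adjusted p = 0.0141, 9.24e-08 and 0.00301, n = 4 arrays each). In these comparisons 13.9%, 30.7% and 28.4% of genes passed, and of the 4 genes only Plcg1 (Plcd1 had no value in the last). The low-dose difference missed the threshold without any 1 of its 4 arrays (adjusted p up to 0.114).

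In embryo bone Plcg1 did not move in 1 direction. Its log2 ratio was 0.02 and -0.10 at the low dose, 0.12 and 0.14 at the high dose, and -0.32 and -0.30 with retinoic acid, so the 3 groups did not overlap. The low dose did not pass (-0.04 ± 0.05, limma adjusted p = 0.688, n = 2). With the high dose it rose 1.10-fold (0.13 ± 0.05, n = 2, limma adjusted p = 0.0308), where 31.1% of 238 genes passed. That call was lost when either array was left out (adjusted p up to 0.265). With retinoic acid it fell by 0.31 on the log2 scale (SE 0.05, n = 2, limma adjusted p = 4.04e-06), where 53.6% of 235 genes passed. The authors' deposited table, centred on each array's median, reads -0.09 and -0.05 on these arrays (adjusted p = 0.594). The high dose exceeded retinoic acid by 0.44 ± 0.06 (limma adjusted p = 3.37e-06, n = 4 arrays), beside 64.5% of all genes.

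The Plcg1 response in bone lay below that in embryo liver with all 3 treatments, by log2 -0.31 at the low dose, -0.50 at the high dose and -0.62 with retinoic acid (limma adjusted p = 0.00207, 2.05e-06 and 2.19e-07, n = 4 arrays each). In the same comparisons 10.1%, 38% and 50% of all genes passed. The low-dose difference was -0.25 without bone replicate 2 (adjusted p = 0.0555). With retinoic acid it also lay below the response in maternal liver (-0.34 ± 0.06, limma adjusted p = 0.000187, n = 4 arrays), where 44.4% of genes passed. In the day-12 embryo the ratios lay between -0.11 and 0.13 on 8 arrays, and no group passed. In maternal liver they lay between -0.13 and 0.07 on 14 arrays, with 7 above and 7 below 0.

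Receptors and growth factors that act ahead of Plcg1 moved in both directions in embryo liver at the high dose. With retinoic acid, most of the receptors that passed rose. At the high dose, 1 of 9 measured receptor tyrosine kinases rose and 1 fell, where 38.7% of all genes passed. Flt1, a receptor for vascular endothelial growth factor, rose (log2 0.42 ± 0.05, limma adjusted p = 9.92e-07, n = 2). Egfr, the epidermal growth factor receptor, fell by 0.996 on the log2 scale (SE 0.06, limma adjusted p = 4.77e-12, n = 2). The median of the 9 was log2 0.09, beside -0.02 over all genes tested. With retinoic acid, where 51.3% of all genes passed, 5 of the 9 rose, led by the lymphatic endothelial receptor Flt4 (0.61 ± 0.07), Met (0.40), the hepatocyte growth factor receptor, Kdr (0.35) and Flt1 (0.33). The neurotrophin receptor Ntrk2 was the 1 that fell (-0.36). The median of the 9 was 0.26 beside -0.06 over all genes. At the low dose only Egfr passed (-0.18 ± 0.06, limma adjusted p = 0.0453, n = 2), and it was lower.

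Of 11 measured growth factors, 1 rose and 3 fell in embryo liver at the high dose, beside the same 38.7% of all genes. Igf1, the insulin-like growth factor made by liver, fell by 0.78 on the log2 scale (SE 0.10, limma adjusted p = 2.26e-06, n = 2). Pdgfa (-0.28) and Hbegf (-0.23) fell, and Hgf rose (0.17). With retinoic acid Igf1 rose (0.25) while Pdgfb (-0.63), Fgf2 (-0.51, from 1 array) and Egf (-0.26) fell. In embryo bone no receptor passed at the high dose, beside 31.1% of all genes. With retinoic acid, where Plcg1 was lower and 53.6% of all genes passed, Egfr (0.41) and Kdr (0.27) rose and Fgfr1 (-0.34) fell. The part of these receptors and growth factors in the changes of Plcg1 was not tested.

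**Figure D2:**
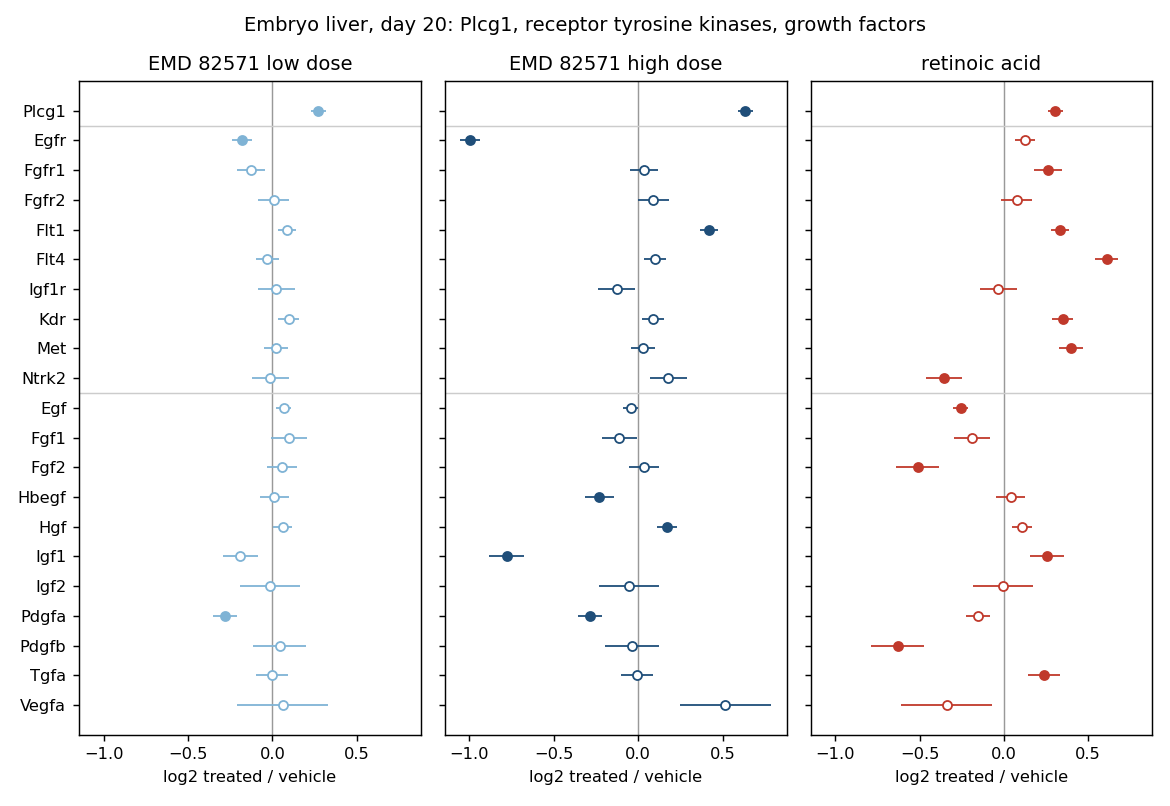
The log2 ratio of treated over vehicle in day-20 embryo liver for Plcg1, 9 receptor tyrosine kinases and 11 growth factors (points, with standard errors as bars, n = 2 arrays a group). Filled points passed the test at an adjusted p of 0.05. At the high dose Plcg1 lies at 0.64 and Egfr at -0.996.

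Marker lists were read on the same embryo liver arrays, where 38.7% of all genes passed at the high dose. At the high dose, 1 of 8 hepatocyte markers rose (Foxa3, 0.35) and 2 fell (Cyp7a1, -0.99, and Serpina1, -0.31). Of 7 cartilage and bone markers 2 rose and 1 fell, with Col2a1, the main collagen of cartilage, at 2.04 and Acan at 0.26. The smooth muscle marker Acta2 fell (-0.48), and 1 of 3 leukocyte markers, Csf1r (-0.25), fell. The part of these shifts in the change of Plcg1 was not tested.

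Plcb1, the isoform driven by G protein-coupled receptors, gave the lowest ratio of the 4 genes, in embryo bone with retinoic acid. Its log2 ratio was -1.30 and -1.42 there, against -0.09, 0.01, -0.02 and 0.06 on the 4 bone arrays with EMD 82571. The retinoic acid arrays lay far below the others and did not overlap them. The fall was 2.57-fold (-1.36 ± 0.15, n = 2, limma adjusted p = 5.62e-08), and 2 of the 235 genes tested had a lower ratio. The high dose of EMD 82571 exceeded retinoic acid by 1.38 ± 0.21 (limma adjusted p = 5.29e-06, n = 4 arrays). In the authors' deposited table that difference was 0.18 and did not pass (adjusted p = 0.262).

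The fall of Plcb1 in bone with retinoic acid rests on few spots, as those marked as dim or uneven were left out of its mean. Only 3 of the 8 Plcb1 spots on these 2 arrays were unmarked, and the treated channel read 1.27 and 1.25 times the local background. With the spots marked as dim kept, the mean was -0.59 (adjusted p = 2.43e-08), without background subtraction it was -0.68, and in the authors' deposited table, centred, -0.23 (adjusted p = 0.0367). Dim probes as a class were low on these arrays: the 25% of probes with the lowest level had a median log2 ratio of -0.54, and 43 of those 59 passed as lower. Plcb1 itself, by the level of its unmarked spots, was not among those 59. The brightest 25% had a median of 0.08. The part of this low end in the Plcb1 value was not tested. On these arrays, where 53.6% of all genes passed, 5 of 8 hepatocyte markers fell and 1, Cyp2e1, rose (0.56). Of 3 leukocyte markers 2 fell, and the neural marker L1cam fell (-1.35). Of 7 cartilage and bone markers Col1a2 rose (0.35), Col2a1 fell (-0.30) and the others did not pass. Their part in the Plcb1 value was not tested.

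In embryo liver Plcb1 read -0.44 and -0.27 with retinoic acid, each from 1 unmarked spot, and 0.07 to 0.15 on the 4 EMD 82571 arrays. The groups did not overlap. The mean with retinoic acid, -0.35 ± 0.15, passed narrowly (limma adjusted p = 0.0474, n = 2) and missed the threshold with the dim spots kept (-0.13, adjusted p = 0.0751) or without either array (adjusted p up to 0.358). On these arrays too the dimmest 25% of probes were low, with a median of -0.26, and Plcb1 was again not among them. The fall of Plcb1 with retinoic acid was larger in bone than in embryo liver by 1.005 on the log2 scale (SE 0.21, limma adjusted p = 0.000459, n = 4 arrays), and than in maternal liver by 1.20 (limma adjusted p = 6.47e-05, n = 4 arrays). In the authors' deposited table the first of these was -0.22 and did not pass (adjusted p = 0.205), and the second was -0.39 (adjusted p = 0.0156). In the day-12 embryo the vehicle signal of Plcb1 was above background on 3 of 8 arrays, and the ratios spread from -0.43 to 0.88. In maternal liver with retinoic acid on day 20 its treated channel was not above background on either array. The measured mean of -0.16 ± 0.15 did not pass (limma adjusted p = 0.493, n = 2). In the authors' deposited table, centred, these arrays read 0.21 and 0.11.

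Plcd1, the isoform switched on by calcium itself, moved little. In the day-12 embryo with retinoic acid its log2 ratio was -0.17 and -0.20 on the batch A arrays and -0.11 and -0.05 on those of batch B. All 4 lay below 0. The mean of -0.13 ± 0.04 passed (limma adjusted p = 0.0171, n = 4), where 34.5% of 232 genes did. The batch A arrays alone gave -0.19 (adjusted p = 0.00117), and those of batch B alone -0.082 (adjusted p = 0.15). The call was lost without either batch A array (adjusted p = 0.0734 and 0.0935). At the high dose of EMD 82571 it read -0.18 and -0.14 (mean -0.16 ± 0.06, limma adjusted p = 0.0827, n = 2), where 6.9% of genes passed and none of the 4. At the low dose it read -0.14 and 0.03, where 14.6% of all genes passed, again none of the 4.

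Set against maternal liver of the same day, the response of Plcd1 was lower in the embryo by 0.26 ± 0.08 (high dose, limma adjusted p = 0.0375, n = 4 arrays) and by 0.24 ± 0.06 (retinoic acid, limma adjusted p = 0.0085, n = 7 arrays). In those comparisons 15.5% and 24.1% of genes passed. The retinoic acid difference was -0.37 in batch A alone and -0.012 in batch B alone (adjusted p = 4e-05 and 0.923), and missed the threshold without maternal liver replicate 1 (-0.16, adjusted p = 0.0716). The high-dose difference did so without any 1 of its 4 arrays (adjusted p up to 0.2). On day 20 Plcd1 rose 1.11-fold in embryo liver at the high dose (0.16 and 0.15, mean 0.15 ± 0.06, limma adjusted p = 0.0395, n = 2). It fell 1.12-fold in embryo bone (-0.10 and -0.22, mean -0.16 ± 0.06, limma adjusted p = 0.0366, n = 2). Both calls were lost when either array was left out. The difference between these tissues, bone minus liver, was -0.32 ± 0.08 (limma adjusted p = 0.00456, n = 4 arrays), and -0.26 without bone replicate 2 (adjusted p = 0.07). In maternal liver with retinoic acid on day 20 every Plcd1 spot was marked as dim, and no value is given.

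Calb1, the calcium buffer, fell in embryo bone with EMD 82571. The log2 ratio was -0.20 and -0.10 at the low dose and -0.47 and -0.56 at the high dose, and the dose groups did not overlap. The high dose gave a 1.43-fold fall (-0.51 ± 0.12, n = 2, limma adjusted p = 0.00262), and 10 of 238 genes had a lower ratio. Without replicate 2 the value was -0.47 and missed the threshold (adjusted p = 0.0838). All 16 spots of these 4 arrays were unmarked, with signals from 2.39 to 3.27 times the local background. The low dose did not pass (-0.15 ± 0.12, adjusted p = 0.616 by limma, n = 2), where 12.2% of genes did and none of the 4. The dose difference of -0.36 did not pass either (95% confidence interval -0.73 to 0.00, limma adjusted p = 0.233, n = 4 arrays), beside 5.04% of all genes. With retinoic acid the arrays read -0.36 and 0.05, and the mean did not pass.

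The fall at the high dose set bone apart from the other day-20 tissues. Bone minus embryo liver was -0.63 ± 0.18 (limma adjusted p = 0.00783, n = 4 arrays) and bone minus maternal liver -0.50 ± 0.18 (limma adjusted p = 0.0384, n = 4 arrays), where 26.1% of genes passed. Without bone replicate 2 the first missed the threshold (-0.58, adjusted p = 0.0596), and the second did so without any 1 of its 4 arrays (adjusted p up to 0.179). Other markers moved on the same high-dose bone arrays, where 31.1% of all genes passed. Of 7 cartilage and bone markers, Col2a1 (1.52) and Acan (0.79) rose and Mmp9 (-1.10), Col1a2 (-1.02) and Mmp13 (-0.38) fell. Of 8 hepatocyte markers only Serpina1 passed (-3.06), and Csf1r fell (-0.55) while Itgb2 rose (0.24). Their part in the Calb1 value was not tested.

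In embryo liver with retinoic acid Calb1 read -0.47 and -0.34, but the treated channel was not above background on either array. The mean of the measured signals was 1.32-fold lower than vehicle (-0.40 ± 0.12, limma adjusted p = 0.0102, n = 2). That fold is not a lower limit, as replicate 2 alone read -0.34. Calb1 was among the 57 dimmest probes of these arrays, whose median was -0.26 and of which 31 passed as lower, and their part in its value was not tested. Without replicate 1 the call was lost (adjusted p = 0.166). The 4 EMD 82571 arrays of embryo liver read 0.03 to 0.12. The high dose thus exceeded retinoic acid by 0.52 ± 0.18 (limma adjusted p = 0.0233, n = 4 arrays), a call lost without either high-dose array or without retinoic acid replicate 1 (adjusted p up to 0.13). In the day-12 embryo at the low dose the vehicle channel was not above background on either array, and the arrays read 0.10 and -0.69, so no fold is given. Hspa5, a calcium-binding chaperone of the endoplasmic reticulum, was the other measured gene of 31 listed for calcium binding and stores. It passed in 1 of 15 groups, maternal liver with retinoic acid on day 20 (0.33 ± 0.07, limma adjusted p = 0.00389, n = 2). There 20.1% of genes passed and none of the 4 described here, of which Plcd1 had no value. Hspa5 was not called in embryo bone at the high dose (-0.04 ± 0.11, from 1 array).

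In the other maternal liver groups, where none of the 4 passed, 14.3%, 21.1% and 27.6% of genes did on day 12 (low dose, high dose and retinoic acid) and 10.1% and 7.11% on day 20 (low and high dose). Differences between doses were not called for any of the 4 in the day-12 embryo, either maternal liver or embryo bone. There 0.913%, 7.79%, 3.36% and 5.04% of all genes passed. Plcd1 had no value with retinoic acid in maternal liver on day 20 and is left out of comparisons with that group. High dose and retinoic acid did not differ beyond the threshold for any of the 4 with a value in the day-12 embryo or maternal liver. Of all genes, 11.2%, 13.4% and 7.86% passed there. For Plcg1, measured most precisely, the 95% confidence intervals of those differences were -0.06 to 0.18 in the embryo, -0.10 to 0.13 in maternal liver on day 12 and -0.15 to 0.11 on day 20. No response differed between days of maternal liver, where 14.3%, 12.5% and 21% of genes passed, or at the low dose between bone and maternal liver (13.9%) and between embryo and maternal liver on day 12 (11.5%).

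The tissues differed in the vehicle level of these genes. Levels are log2 Cy3 intensities after scaling between arrays, compare 1 probe across tissues only, and were fitted with array batch as a term. Arrays of the same tissue and day may carry the same vehicle RNA. Here n counts arrays, and the spread behind the p-values may be technical. Plcg1 ranged from 10.7 to 11.2 on the 6 batch A arrays of the day-12 embryo (median 10.9) and from 8.65 to 9.12 on the 6 of maternal liver (median 8.80). The ranges did not overlap. The embryo was 3.71-fold higher (log2 1.89 ± 0.16, limma adjusted p = 6.21e-13, n = 16 arrays), and 78.4% of 232 genes differed there. Within batch A the difference was 2.12 and within batch B 1.20 (adjusted p = 1.43e-12 and 0.0286).

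On day 20, Plcg1 was 1.67-fold higher in embryo than in maternal liver (0.74 ± 0.18, limma adjusted p = 0.000847, n = 12 arrays), where 49.8% of genes differed. The 4 embryo liver arrays of batch C lay between 9.67 and 9.98 and the 4 maternal liver arrays between 8.79 and 9.16. In batch B, with 2 arrays each, the difference was 0.60 (adjusted p = 0.345). Embryo bone ranged from 8.83 to 9.90, and the 2 arrays of the retinoic acid session were the lowest, at 8.83 and 8.91. Bone was below embryo liver by 0.47 (adjusted p = 0.0336 by limma, n = 12 arrays), but that call was lost under both other scalings.

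Plcd1 in embryo bone ranged from 7.90 to 9.05 over 6 arrays (median 8.71), above all 4 embryo liver arrays of the same batch (7.09 to 7.40). Bone exceeded embryo liver 2.58-fold (1.37 ± 0.18, limma adjusted p = 3.61e-08, n = 12 arrays), where 67.4% of genes differed. It exceeded maternal liver 2.93-fold (1.55 ± 0.18, limma adjusted p = 2.02e-09, n = 10 arrays), where 77.4% did. The day-12 embryo was 2.33-fold above maternal liver (1.22 ± 0.14, limma adjusted p = 3.39e-09, n = 15 arrays). Embryo and maternal liver on day 20 were not told apart (0.18 ± 0.19).

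Plcb1 ran the other way on day 12: the embryo was below maternal liver by 0.68 on the log2 scale (SE 0.18, limma adjusted p = 0.000905, n = 16 arrays). It was -0.99 within batch A but 0.23 within batch B (adjusted p = 0.638). On day 20 Plcb1 in bone was below maternal liver by 0.58 (limma adjusted p = 0.0186, n = 12 arrays). In bone the 4 EMD 82571 arrays lay between 6.83 and 6.93. The 2 retinoic acid arrays lay at 7.70 and 7.68, from 1 and 2 unmarked spots. Their vehicle signal was not higher over local background, at 1.61 and 1.93 times against 1.74 to 2.13 on the EMD 82571 arrays. Calb1 levels did not differ beyond the threshold in any of the 5 comparisons (largest 0.32, bone minus embryo liver, limma adjusted p = 0.112, n = 12 arrays). None of the 4 differed between maternal liver of day 20 and day 12, where 12.1% of genes did.

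**Figure D3:**
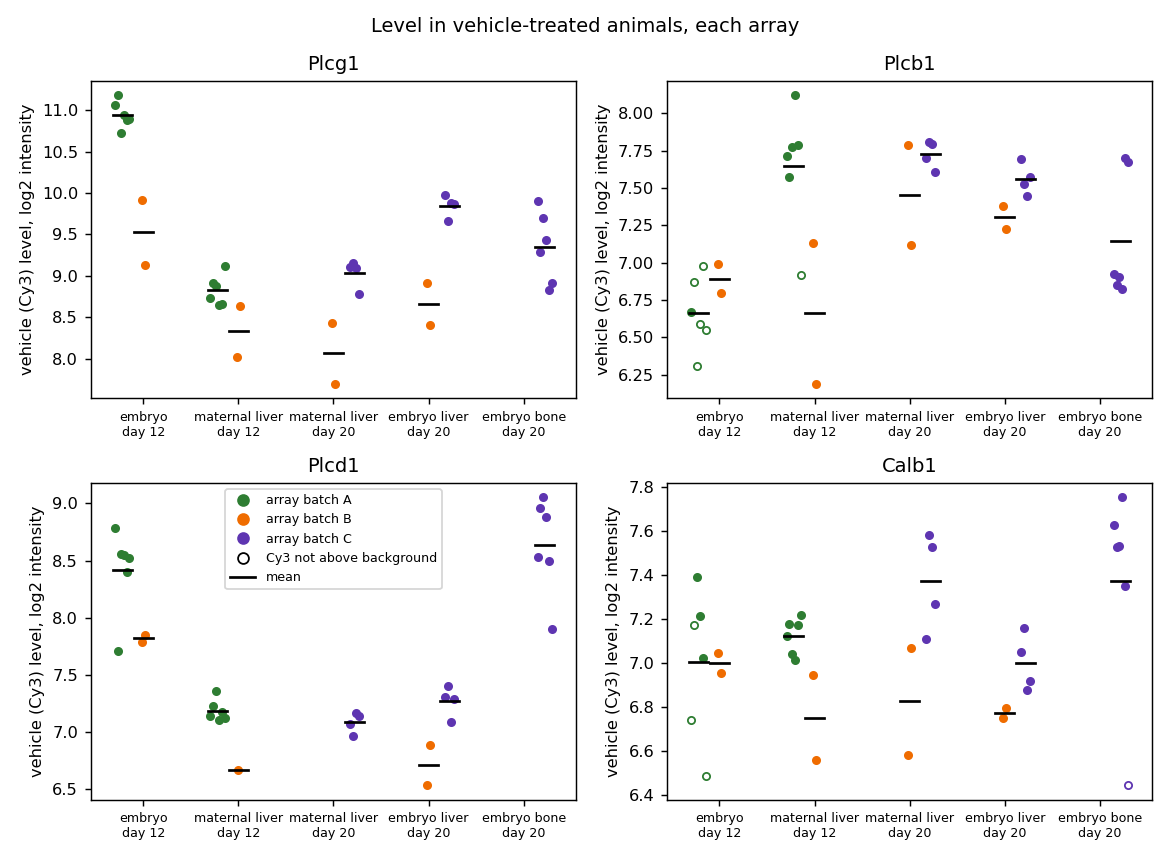
The vehicle (Cy3) level of each gene, in log2 intensity, on each array (points) by tissue and day, coloured by array batch, with the mean of each batch (bars). Open points were not above background. Within batch A, Plcg1 lies at 10.7 to 11.2 in the day-12 embryo and 8.65 to 9.12 in maternal liver. Within batch C, Plcd1 lies at 7.90 to 9.05 in embryo bone and 7.09 to 7.40 in embryo liver.

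The mean log2 ratios of the 4 genes over the groups were weakly related to each other, with Pearson's r from 0.11 (Plcg1 and Calb1) to 0.57 (Plcd1 and Calb1, 14 groups). The genes most like Plcg1 over 15 groups were Hsp90aa1, a heat shock protein (r = 0.85), Gdf2 (0.80) and Pold1, a DNA polymerase subunit (0.80). Those most like Plcb1 were Cyp2c13 (0.94), Cyp2c11 (0.94) and Nat2 (0.92). In embryo bone with retinoic acid Plcb1 lay at -1.36 and Cyp2c11 at -1.26. In the other groups Plcb1 lay between -0.35 and 0.14 and Cyp2c11 between -0.30 and 0.10, so their r leans on that group. Calb1 ran closest to the probes named BMP8 (0.93), CBFA1 (0.81) and Wnt10b (0.73), and Plcd1 to CYP21A2 (0.62), BMP8 (0.57) and Calb1 (0.57). In vehicle level, over 9 combinations of tissue, day and batch centred within batch, Plcg1 ran with Top2b (0.97) and Gps1 (0.95). Plcd1 ran with Tgfb2 (0.99), Csf2 (0.99) and Ccn2 (0.98) over 8 combinations, Plcb1 with Pecam1 (0.89), Foxa3 (0.81) and Flt1 (0.79), and Calb1 with Ntrk3 (0.74), Fgfr2 (0.73) and HSP70.1 (0.70). These correlations describe points that share arrays and dyes.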

How the data were processed

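Spot files for 34 arrays hold, per the file headers, mean intensities of the spots and the local backgrounds around them in each channel. The authors' deposited table holds log2 ratios per grid position. Its scale, found against the spots, is that of ratios without background subtraction or centring.

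Intensities were background-corrected (normexp, offset 50) and loess-normalized within arrays in limma 3.58.1 (R 4.3.3). The 4 spots of a probe were averaged without those marked in the files as dim or uneven or by hand. A probe counted as above background where its signal exceeded background by 2 SD in a share of at least 0.5 of its spots. Probes above background in 1 channel on at least 2 arrays were tested, and all 239 named probes met this. A single fit held a mean for each of 15 groups and gave 40 comparisons; vehicle levels were fitted separately. Where a channel was above background on no array of a group, a fold given is that of the measured signals. Across batches that measured the same tissue, vehicle levels correlated with a Spearman rho from 0.889 to 0.927.

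The 4 genes were always named. Of each gene list up to 4 with the smallest p were, and 3 most alike in ratio and level, of which 1 is not reported here. Genes, lists and tests were chosen with earlier results of these data known. Alternatives changed background correction, scaling, filters, batch handling and source. The steps were tested on simulated data. The number of arrays limits the precision.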

Additional observations from a re-analysis of the deposited data

Results flagged for a closer look

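Among 27 sets of log2 ratios or vehicle levels with enough arrays to look for a stray value, 2 held an array far from the others. Both were sets of vehicle levels, and chance flags about 1 in 20 sets of either kind. The vehicle level of Plcd1 in the day-12 embryo was 7.71 on replicate 2 of the low-dose arrays, below the 8.40 to 8.79 of the other batch A arrays. The vehicle level of Calb1 in embryo bone was 6.44 on replicate 2 of the retinoic acid arrays, where it was not above background.

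The other results listed are differences in response between tissues that passed their own test (limma, adjusted p-values as given in the report). Plcg1 responded more strongly in embryo than in maternal liver on day 20, by log2 0.24, 0.63 and 0.28 at the low dose, the high dose and with retinoic acid. Its bone minus embryo liver differences were -0.31, -0.50 and -0.62, and bone minus maternal liver with retinoic acid was -0.34. For Plcd1, embryo minus maternal liver on day 12 was -0.26 at the high dose and -0.24 with retinoic acid, and bone minus embryo liver at the high dose was -0.32. For Calb1 at the high dose, bone minus embryo liver was -0.63 and bone minus maternal liver -0.50. For Plcb1 with retinoic acid, bone minus embryo liver was -1.005 and bone minus maternal liver -1.20. The retinoic acid arrays of liver and bone come from different batches.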

How the results depend on the processing

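Of 1880 values recomputed under an alternative, 1764 kept their side of the threshold and, where called, their direction. The same held for 774 of 820 that left out 1 array. A change of sign was not counted where neither value was called. The 1764 include all 155 values without the filter on dim probes, an alternative that could change nothing because all 239 probes had met that filter. Changes went both ways, and those named below are calls lost or values turned. With the array median in place of loess, 12 of 155 values gained a call and 6 lost it. With only the batches compared 13 gained and 3 lost a call, and in the authors' deposited ratios 6 gained and 23 lost it. Most of the 155 values were not called as reported, so the deposited ratios lost most of the calls. Calls as reported were 12 of 59 for treated over vehicle, 4 of 19 between compounds, 1 of 20 between doses and 14 of 57 between tissues or days. The rise of Plcg1 in embryo liver at the high dose kept its direction and its call under every alternative run. So did the fall of Plcb1 in embryo bone with retinoic acid. The cause of the changes below was not tested. Without background subtraction, Plcd1 lost its call in embryo liver at the high dose (0.084) and in embryo minus maternal liver on day 12 at that dose (-0.17), and Plcb1 in embryo liver with retinoic acid (-0.17). With plain subtraction, calls were lost for Plcd1 in the embryo with retinoic acid (-0.12), in bone at the high dose (-0.17) and in embryo minus maternal liver (-0.29). The same held for Plcb1 in embryo liver with retinoic acid (-0.51), Plcg1 in bone at the high dose (0.13) and in embryo minus maternal liver at the low dose (0.25), and Calb1 in bone minus maternal liver (-0.55). With the array median in place of loess, Plcd1 lost its high-dose calls in embryo liver (0.11), bone (-0.10) and embryo minus maternal liver on day 12 (-0.21). So did Plcg1 at the low dose in embryo minus maternal liver (0.071) and bone minus embryo liver (-0.19), and Calb1 in bone minus maternal liver (-0.45).

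The authors' deposited ratios lost the most calls. For Plcg1 these were embryo liver at the low dose (0.22) and with retinoic acid (0.20), bone at the high dose (0.25) and with retinoic acid (-0.066), the dose difference in embryo liver (0.49) and high dose minus retinoic acid in bone (0.32). They also held its embryo minus maternal liver differences at the low dose (0.086) and with retinoic acid (0.15), bone minus embryo liver at the low dose (-0.16) and with retinoic acid (-0.26), and bone minus maternal liver (-0.11). For Plcd1 they were the embryo with retinoic acid (-0.021), embryo liver (0.078) and bone (-0.089) at the high dose, embryo minus maternal liver at the high dose (-0.15) and with retinoic acid (-0.093), and bone minus embryo liver (-0.17). For Plcb1 they were embryo liver with retinoic acid (-0.0084), high dose minus retinoic acid in bone (0.18) and bone minus embryo liver (-0.22). For Calb1 they were high dose minus retinoic acid in embryo liver (0.29), bone minus embryo liver (-0.33) and bone minus maternal liver (-0.34). Calb1 in the day-12 embryo at the high dose turned from 0.01 to -0.25 (adjusted p = 0.0431).

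Plcb1 in embryo liver with retinoic acid also missed the threshold with marked spots kept (-0.13), with probes required above background in both channels and with only the batches compared (both -0.35), with batch (-0.42) or session (-0.26) as a random block, and with each gene's mean over the groups subtracted (-0.26). Plcd1 in the embryo with retinoic acid missed it with only the batches compared and with the batch block (both -0.13), with the session block (-0.14) and in batch B alone (-0.082). Its difference from maternal liver missed it with only the batches compared (-0.24) and in batch B alone (-0.012). Under either block, Plcd1 at the high dose in embryo liver (0.15) and bone (-0.16) and Plcg1 in bone (0.13) missed it, as did Calb1 high dose minus retinoic acid in embryo liver (0.41 and 0.49). Calb1 in embryo liver with retinoic acid missed it under the batch block (-0.30), and Plcg1 in bone at the high dose with gene means subtracted (0.064). The vehicle difference of Plcg1, bone minus embryo liver, was not called with the array median (-0.12) or 75th percentile (-0.29) subtracted or without a batch term (-0.11). Within batch B the embryo liver difference of Plcg1 was 0.60, and that of Plcb1 on day 12 turned to 0.23.

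Leaving out 1 array at a time ended calls for Plcd1 in the embryo with retinoic acid (-0.16 to -0.11), embryo liver (0.15 to 0.16) and bone (-0.22 to -0.10) at the high dose, embryo minus maternal liver at the high dose (-0.28 to -0.23) and with retinoic acid (-0.32 to -0.16), and bone minus embryo liver (-0.38 to -0.26). For Plcg1 these were bone at the high dose (0.12 to 0.14), and at the low dose embryo minus maternal liver (0.22 to 0.26) and bone minus embryo liver (-0.37 to -0.25), and its vehicle difference (-0.58 to -0.37). For Calb1 they were bone at the high dose (-0.56 to -0.47), embryo liver with retinoic acid (-0.47 to -0.34), high dose minus retinoic acid there (0.45 to 0.59), bone minus embryo liver (-0.67 to -0.58) and bone minus maternal liver (-0.55 to -0.45). For Plcb1 it was embryo liver with retinoic acid (-0.44 to -0.27). Without retinoic acid replicate 3 of the embryo, the Plcb1 difference from maternal liver turned from 0.04 to -0.21 (adjusted p = 0.0393). No paired analysis was possible because replicate numbers were given in accession order and pair no arrays.

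Counts of called genes over the whole array moved by over 1.5 times in 55 of 184 recounts. In embryo liver at the low dose 29 genes were called, and 2 in the authors' deposited table, 90 with only the batches compared, 11 with the batch block, 10 with the session block and 45 with marked spots kept. The filter on the arrays compared was chosen after seeing the data. Dim signal limits Plcb1, Calb1 and, in batch B, Plcd1.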
